A study of Schizosaccharomyces pombe with 384 samples.

Results

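The 10 genes described here encode enzymes of ergosterol biosynthesis in the fission yeast S. pombe: hmg1, erg9, erg1, erg7, erg11, erg25, erg6, erg31, erg5 and erg4. They were taken by name from a table of 7259 annotated genes, and all 10 were found. Their mRNA was counted by 3′ mRNA-Seq in 376 libraries of knockout strains and 8 libraries of wild type. The 94 haploid knockout strains, each with 1 gene deleted (4 libraries a strain), come from the commercial deletion collection, so that a strain stands for 1 isolate of its deletion. All strains and the wild type were grown in the rich medium YES at 32 °C in deep-well plates and received no drug or stress. A library carries a replicate number from 1 to 4 and a well. The study speaks of biological replicates of a strain, and the labels do not describe how the cultures were kept apart.

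Ergosterol is the main membrane sterol of fungi and takes the place that cholesterol has in animal cells. Hmg1 makes mevalonate, the early precursor, and Erg9 joins farnesyl units to squalene. Erg1 adds oxygen to squalene, Erg7 closes the rings to lanosterol, and Erg11, a cytochrome P450, Erg25, Erg6, Erg31, Erg5 (a second P450) and Erg4 then trim, methylate, desaturate and reduce the sterol. Erg1, Erg11, Erg25, Erg31 and Erg5 each need molecular oxygen. In S. pombe the transcription factor Sre1, a relative of the mammalian SREBP proteins, raises many of these genes when oxygen or sterols run low. A 3′ library holds 1 read per captured transcript end, so CPM (counts scaled to the size of the library) were compared between genes without division by length. In such bulk RNA, fewer cells with a transcript and less of it per cell cannot be told apart.

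Sums over the table lay between 1337656 and 2659644 reads per library, and 3 reads were worth 0.893 to 2.54 CPM. A member had at least 17 reads (erg7) in every library, and all 10 passed the filter on low values in all 94 strains. The transcript of the gene named as deleted fell below the whole wild-type range in 27 strains, lay above it in 14 and overlapped with it in 53. A 3′ tag can lie outside the deleted part, so this check says little about a strain where the gene did not fall. Of the 8 wild-type libraries, 6 are described in 1 label field as knockout strain although their strain label begins with wt.

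In wild type, erg5 stood highest, with a lowest, median and highest value of 779, 971 and 1112 CPM, and a mean of 957 ± 117 CPM (SD, n = 8). It was followed by erg1, the squalene epoxidase gene, at 854 ± 186 CPM, erg25 (sterol C-4 methyl oxidase) at 670 ± 139 CPM and erg6 (sterol methyltransferase) at 579 ± 56.8 CPM. The lanosterol demethylase gene erg11 averaged 518 ± 93.5 CPM, and erg31, a C-5 sterol desaturase gene, 396 ± 111 CPM. These 6 overlapped with their neighbours in the order, and erg5 exceeded erg1 in 5 of 8 libraries. The sterol reductase gene erg4 averaged 202 ± 16.3 CPM, and its values overlapped with those of erg31. Lower still were erg9 (squalene synthase) at 88.7 ± 6.53 CPM and hmg1 (HMG-CoA reductase) at 81.8 ± 16.4 CPM, which overlapped with each other. The lanosterol synthase gene erg7 was lowest, at 29.6 ± 8.61 CPM, and its range of 20.8 to 41.0 CPM lay apart from that of hmg1. The genes of the enzymes on either side of squalene epoxidase, erg9 and erg7, thus had far lower counts than erg1. Unlike erg1, each overlaps a gene on the other strand, which leaves its count less certain, as described below.

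Gene positions are those of the files, on build ASM294v2. On chromosome I lie erg11 (SPAC13A11.02c, 574652 to 577171), erg7 (SPAC13G7.01c, 2292636 to 2295220), erg31 (SPAC1687.16c, 932425 to 934021), erg5 (SPAC19A8.04, 2480065 to 2482210), erg4 (SPAC20G4.07c, 4826601 to 4828141) and erg25 (SPAC630.08c, 359638 to 361266), all on the minus strand. On chromosome II lie erg6 (SPBC16E9.05, 1923596 to 1925394, plus strand), erg9 (SPBC646.05c, 931002 to 932484, minus strand) and erg1 (SPBC713.12, 892162 to 894361, plus strand). On chromosome III lies hmg1 (SPCC162.09c, 1561184 to 1565491, plus strand). The spans of erg1, erg4, erg5, erg11, erg25 and erg31 touch no other gene of the table. Those of hmg1 (with ppk33 and SPNCRNA.1205), erg6 (with uvi31 and SPBC16E9.19), erg9 (with pla1) and erg7 (with SPAC4G9.22) do, and the use of strand in counting is not given in the sources used here, so their counts are less certain.

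The comparison of each knockout strain with wild type asks which deletions change the mRNA of the pathway. A member was called where its log2 fold change reached 0.6 in either direction and p was 0.005 or less in limma's test, fitted over all transcripts of the strain. All comparisons share the 8 wild-type libraries. Of 940 pairs of member and strain, 21 (2.23%) were called lower, against 1.47% of all transcripts tested, and 0 were called higher, against 2.1%. At an adjusted p under 0.05 in place of the unadjusted one, 18 pairs were lower, against 1.19% of all transcripts, and 0 higher, against 1.76%. By direction alone, 142 pairs (15.1%) were lower at an unadjusted p under 0.05, against 7.0% of all transcripts, and 8 pairs (0.851%) were higher, against 7.81%. In 48 pairs (5.11%) all 4 knockout libraries lay below all 8 of wild type, against 1.72% of all transcripts, and in 0 pairs all 4 lay above, against 1.86%. The largest rise of any pair was 0.46 (log2). On the scale of the files the sterol genes thus moved mainly to lower levels in these strains, while transcripts as a whole moved both ways, but on CPM recomputed from the reads on genes the members had 50 pairs lower (5.32%, against 3.0% of all transcripts) and 43 higher (4.57%, against 15.7%) at an unadjusted p under 0.05, with a median log2 fold change of 0.05 beside 0.13 for all transcripts. On the scale of the files, falls without rises were not particular to the sterol genes. Of 470 pairs of strain and vegetative growth gene (act1, adh1, tdh1, fba1, eno101), 124 were called lower (26.4%) and 0 higher. The count of lower pairs of the members depended on how libraries were paired and scaled. With the replicate number as a block it was 40 (4.26%, against 1.73% of all transcripts) and 0 were higher (against 2.51%). Without the block in the same libraries it was 8 (0.851%, against 1.32%). On CPM from the reads on genes, under which the median transcript shifted up by 0.13, 88.5% of the calls of all transcripts were higher, against 59.0% on the scale of the files. On CPM from the reads on genes, 6 pairs were called lower (0.638%, against 0.586% of all transcripts) and 0 higher (against 4.52%). Without replicate 2 the lower pairs were 9 (0.957%, against 0.959%), they were 10 without replicate 3 (1.06%, against 1.23%), and they were 35 without replicate 4 (3.72%, against 1.63%). With the wild-type libraries of well A1 or well A2 alone they were 5 each (0.532%, against 1.02% and 0.815%). Set against the other 93 strains in place of wild type, 7 pairs were lower (0.745%, against 0.854%) and 1 higher (against 0.992% of all transcripts). In 6 of these settings, those without the block, without replicate 2 or 3, with wild type of 1 well and against other strains, the members' share was thus at or below that of all transcripts.

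**Figure D1:**
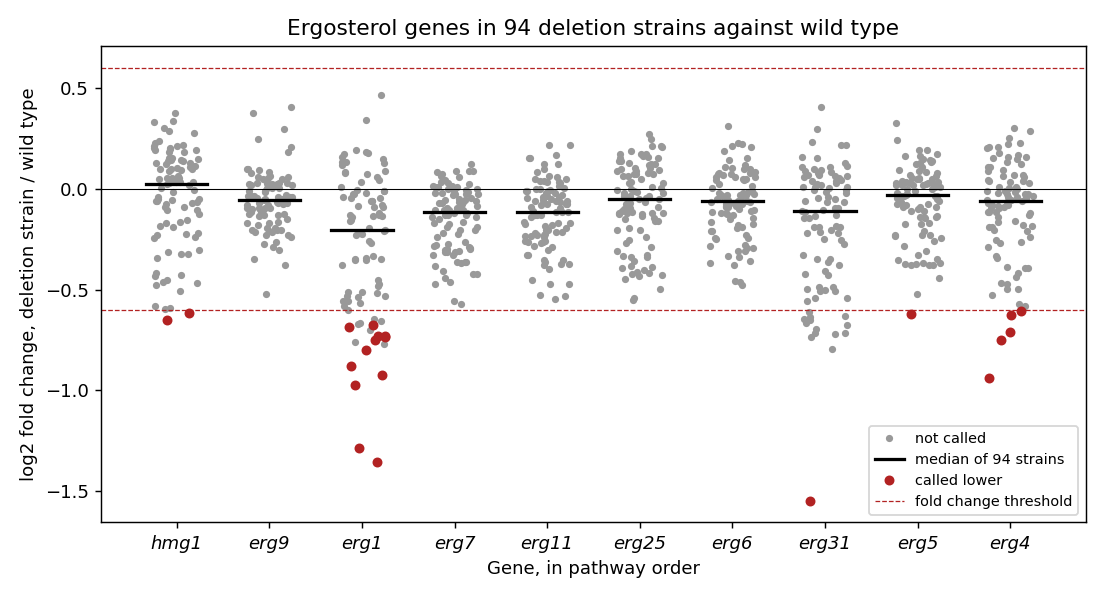
Log2 fold change of each knockout strain over wild type (vertical axis) for the 10 genes (horizontal axis). Each point is 1 of 94 strains and red points are the 21 called lower, 12 of them for erg1, while no point passes the upper dashed line at 0.6. On CPM from reads on genes 6 are called lower.

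The calls were uneven along the pathway. Of the 21, 12 were of erg1, 5 of erg4, 2 of hmg1 and 1 each of erg31 and erg5, and none were of erg9, erg7, erg11, erg25 or erg6. Over the 94 strains the median log2 fold change was -0.21 for erg1 (range -1.36 to 0.46) and between -0.12 and 0.03 for the other 9 genes. At an unadjusted p under 0.05, erg1 was lower in 32 strains, erg4 in 22, erg31 in 15, erg5 and erg6 in 14 each, hmg1 in 13, erg11 in 12, erg25 in 10, erg9 in 7 and erg7 in 3. Over all transcripts 7.0% of comparisons were lower at this p, so that erg9 was near that share of the 94 strains and erg7 under it. The reductase gene erg4 had 17 of 94 strains whose 4 libraries all lay below all 8 of wild type, against 1.72% of comparisons over all transcripts. It was also among the members with the narrowest spread in wild type.

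The libraries labelled rpl1801, a strain that lacks 1 of the genes for ribosomal protein L18, had 5 members called lower, more than any other strain, and all 10 members below wild type. There, 9.66% of all transcripts were called lower. The rpl1801 transcript itself was down to 9.78% of wild type. The desaturase gene erg31 had 107, 208, 92.9 and 138 CPM in replicates 1 to 4, against a lowest, median and highest value of 224, 432 and 494.7 CPM in wild type. All 4 lay below all 8, and the log2 fold change was -1.55 ± 0.27 (SE, limma, adjusted p = 0.00093). Squalene epoxidase erg1 had 255, 439, 227 and 444 CPM, against 608, 883 and 1065 CPM in wild type. Its fold change of -1.36 ± 0.23 (adjusted p = 0.00067) left 40.0% of the wild-type mean. The last gene of the pathway, erg4, had 116, 77.7, 97.8 and 139 CPM, against 184, 199 and 232 CPM in wild type (log2 fold change -0.94 ± 0.15, adjusted p = 0.00051). The mevalonate enzyme gene hmg1 fell by 0.65 and the P450 gene erg5 by 0.62 (adjusted p = 0.0090 and 0.0080), again with all 4 libraries below wild type. With the replicate number as a block these 2 falls were -0.60 and -0.58 and missed the fold change. The remaining 5 members had log2 fold changes of -0.55 (erg25), -0.53 (erg11), -0.46 (erg6), -0.23 (erg9) and -0.07 (erg7). On CPM from reads on genes, under which the median of all transcripts in this strain shifted by 0.46, erg31 (-1.08) and erg1 (-0.89) were still called, and erg4 (-0.47), hmg1 (-0.18) and erg5 (-0.15) were not.

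Of the other strains, hcr1, SPBC16A3.17c and ssz1 had 2 members called, in each case erg1 and erg4. Hcr1 is a translation initiation factor subunit and Ssz1 a ribosome-bound chaperone. In the libraries labelled hcr1, erg1 had 449, 642, 498 and 262 CPM, against 608 to 1065 CPM in wild type (log2 fold change -0.92 ± 0.23, adjusted p = 0.024). There erg4 had 151, 153, 121 and 72.9 CPM, all below the lowest wild-type value of 184 CPM (-0.75 ± 0.18, adjusted p = 0.019). In this strain 4.59% of all transcripts were called lower, and hcr1 itself stood at 158% of wild type, above all 8 libraries. In ssz1 knockout libraries, where ssz1 was at 16.5% of wild type, erg1 had 647, 627, 355 and 369 CPM and erg4 147, 179, 109 and 105 CPM. The fold changes were -0.80 ± 0.22 and -0.61 ± 0.15 (adjusted p = 0.020 and 0.012), beside 6.26% of all transcripts called lower. The erg1 values of ssz1 overlapped with wild type in replicates 1 and 2, and those of erg4 did not overlap. In the libraries labelled SPBC16A3.17c, erg1 had 504, 446, 642 and 439 CPM and erg4 129, 102, 123 and 178 CPM (log2 fold changes -0.74 ± 0.19 and -0.63 ± 0.15, adjusted p = 0.014 and 0.0086), beside 5.39% of all transcripts. The deleted gene overlapped with wild type there. With the replicate block erg4 in this strain (-0.60) missed the fold change. On CPM from reads on genes all 6 pairs lost their call, with erg1 at -0.53, -0.52 and -0.55 and erg4 at -0.36, -0.41 and -0.36 in hcr1, SPBC16A3.17c and ssz1.

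In the libraries labelled tfg3, named for a subunit of the general transcription factors TFIID and TFIIF, erg1 was the one member called, as in 7 other strains, and with the replicate block erg31 was called as well (-0.64). The level of erg1 was 369, 402, 340 and 274 CPM, against 608 to 1065 CPM in wild type, a log2 fold change of -1.28 ± 0.19 (adjusted p = 0.0019) that was called under all 26 alternatives tried. Squalene synthase erg9, by contrast, had its largest strain mean here, with 134, 126, 118 and 94.6 CPM, against 79.1, 88.5 and 99.9 CPM in wild type (log2 fold change 0.40 ± 0.12, adjusted p = 0.085, not called). In this strain 2.33% of all transcripts were called lower, and tfg3 itself overlapped with wild type. The rpl3801 knockout had erg4 called, with 130, 117, 101 and 148 CPM, all below wild type (-0.71 ± 0.13, adjusted p = 0.0039, beside 4.65% of all transcripts). The rpl901 knockout had hmg1 called, with 56.8, 59.3, 47.6 and 47.2 CPM, against 65.9, 76.6 and 114 CPM in wild type (-0.62 ± 0.16, adjusted p = 0.024, beside 3.66%). On CPM from reads on genes both lost their call (-0.44 and -0.46), and with the replicate block hmg1 in rpl901 did (-0.58). In the libraries labelled ada2, a subunit of the SAGA histone acetyltransferase complex, erg1 had 488, 615, 492 and 414 CPM (-0.75 ± 0.18, adjusted p = 0.024, beside 3.1%), and ada2 itself was at 188% of wild type. The other 6 calls were all of erg1, in the strains labelled pek1 (-0.97), rps1802 (-0.88), nde2 (-0.73), rpl902 (-0.73), gcn5 (-0.69) and SPBC17A3.06 (-0.68). Of these, nde2 and gcn5 passed an adjusted p under 0.05 (0.024 and 0.045), and the others had adjusted p of 0.050 to 0.082. In the libraries labelled pek1, erg1 had 507, 584, 565 and 195 CPM, all below wild type, and the call was kept without replicate 4 (-0.74) and lost without replicate 1, 2 or 3. All 21 called pairs lay below the wild-type mean of the same replicate number in 4 of 4 replicates, with replicate 2 set against its library of well A1. The pairs were called for low values against these same wild-type libraries, so this is no separate support. The strain with the highest mean of erg1 was SPBC713.07c, with 1369, 1487, 1276 and 678 CPM (log2 fold change 0.46 ± 0.23, adjusted p = 0.55). The gene deleted there lies on chromosome II, 9981 bases from erg1 with 11 genes between.

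**Figure D2:**
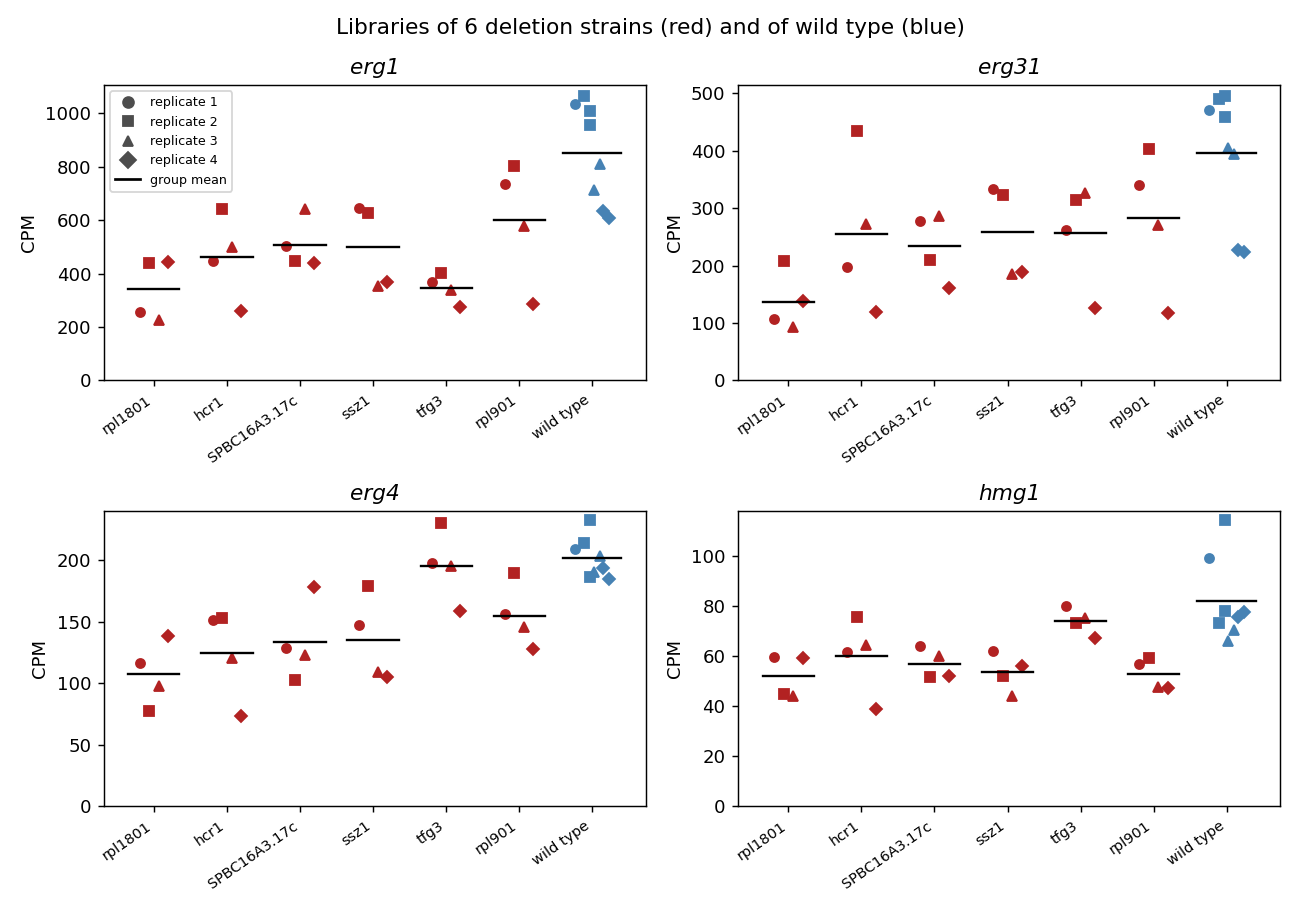
CPM of erg1, erg31, erg4 and hmg1 in each library of 6 knockout strains (red, left) and of wild type (blue, right), with the marker showing the replicate number and the line the group mean. In the rpl1801 knockout all 4 libraries of each of the 4 genes lie below all wild-type libraries, and erg31 is lowest in replicate 4 in wild type as in most strains.

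Summed levels of marker lists were compared in the same strains. The summed level of 5 genes of vegetative growth (act1, adh1, tdh1, fba1, eno101) was 9716 to 24275 CPM in the libraries of rpl1801, 19547 to 31226 CPM in those of hcr1 and 16988 to 25607 CPM in those of ssz1, against 33581 to 52274 CPM in wild type. The 9 mating and meiosis genes found of 10 summed to 52.8 to 63.4 CPM in rpl1801, 133 to 217 CPM in tfg3 and 203 to 395 CPM in ada2, against 37.8 to 47.4 CPM in wild type. In tfg3, 1 of the 9 was at 0 in every library. The 6 stress genes summed to 1180 to 2926 CPM in rpl1801 and 1112 to 13242 CPM in ssz1, against 1478 to 4072 CPM in wild type, with which both overlapped. In rpl1801 the stress genes went both ways, with log2 fold changes of 1.96 for hsp9, -1.11 for gpd1 and -1.23 for tps1. The mating sums of hcr1 (35.9 to 62.3 CPM) and rpl3801 (37.9 to 48.6 CPM) overlapped with wild type. Their part in the changes of the sterol genes was not tested.

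Ribosomal protein knockouts made up 19 of the 94 strains and held 9 of the 21 calls. Of the 9, 5 were in rpl1801, where 9.66% of all transcripts were called lower. The share of all transcripts called lower over the 19 strains was not counted. The gene named as deleted overlapped with wild type in rpl39 (95.2%), rps1802 (89.4%), rpl3201 (84.8%), rpl1602 (84.1%) and rpl2101 (73.5%), and fell below it in the others. The 19 strains were compared with the other 75 on strain means of log2 CPM, a comparison that wild type does not enter. Of the 10 members, 7 were lower at an adjusted p under 0.05 (limma over 5021 transcripts), against 20.7% of all transcripts, and 0 were higher, against 21.6%. The median difference of the members was -0.17 (log2), and that of all transcripts 0.00. The largest was that of erg1, with a lowest, median and highest strain level of 326, 567 and 883 CPM in ribosomal protein knockouts, against 343, 760 and 1152 CPM in the others. This was a difference of -0.30 ± 0.09 (SE, adjusted p = 0.0049), and 15 of the 19 strains lay below the median of the others. For erg31 the levels were 130, 268 and 413 CPM, against 228, 362 and 502 CPM (-0.26 ± 0.08, adjusted p = 0.0047). For erg5 they were 617, 811 and 1004 CPM, against 699, 956 and 1192 CPM (-0.20 ± 0.04, adjusted p = 0.00035), with 17 of 19 strains below the other strains' median. The same held for erg4 in 17 strains (-0.23 ± 0.06, adjusted p = 0.0020), and hmg1 (-0.23), erg25 (-0.14) and erg6 (-0.11) were lower as well. The 3 members not called were erg11 (-0.09 ± 0.04, adjusted p = 0.076), erg9 (-0.01 ± 0.04) and erg7 (0.02 ± 0.04). Strain ranges of the classes overlapped for every gene. Within replicates 1 to 4 taken alone, 6, 3, 6 and 2 members were lower, and on CPM from reads on genes 5. Without the rpl1801 libraries 5 members were lower, with erg25 and erg6 no longer called. The share of all transcripts was not counted in these settings, so these counts cannot be set against a background.

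**Figure D3:**
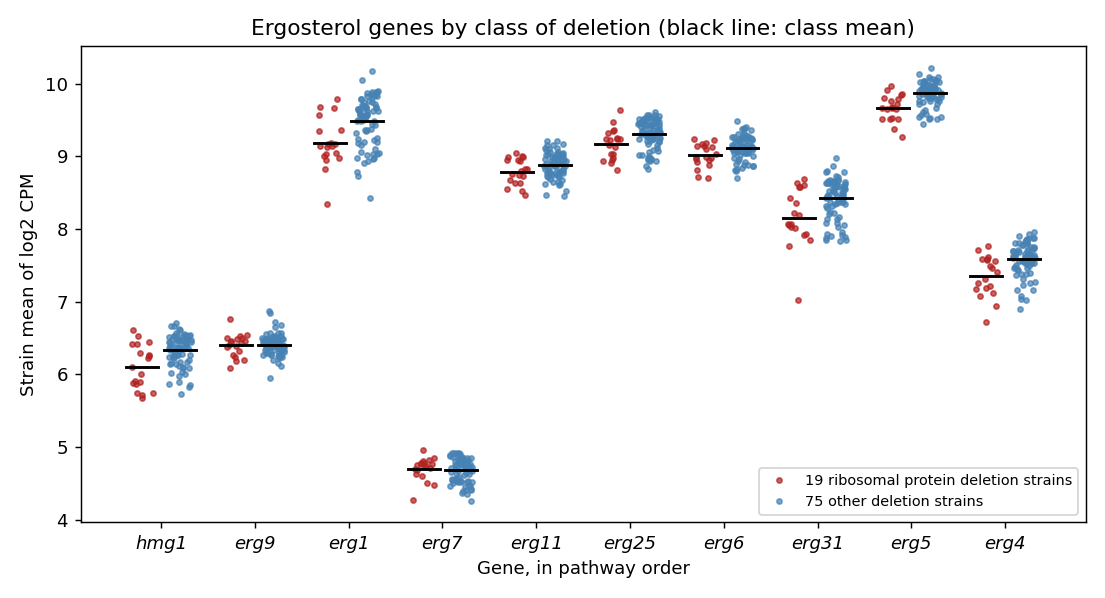
Strain means of log2 CPM for the 10 genes in the 19 ribosomal protein knockouts (red, left of each pair) and the 75 other knockouts (blue, right), with class means as black lines. The red means lie lower for erg1, erg31, erg4, hmg1, erg5, erg25 and erg6, and the clouds overlap for every gene.

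The 5 strains labelled as knockouts of SAGA genes (ada2, gcn5, ngg1, spt7, spt8) were set against the 70 strains of neither class. In none of the 5 did the transcript of the gene named as deleted fall below wild type: ada2 lay above it, at 188%, and the others overlapped, at 196% (gcn5), 66.0% (ngg1), 93.6% (spt7) and 79.7% (spt8). None of the members was called at an adjusted p under 0.05, against 2.58% of all transcripts lower and 2.4% higher. At an unadjusted p under 0.05, which 8.90% of all transcripts passed as lower and 9.57% as higher, erg1 (-0.31 ± 0.15, just inside that threshold), erg31 (-0.26 ± 0.12), erg25 (-0.21 ± 0.09) and erg6 (-0.16 ± 0.07) were negative. The difference of erg5 was positive (0.19 ± 0.07, adjusted p = 0.11). The 5 strain means of erg5 lay close together, at 1039 to 1088 CPM. Without the spt8 strain, erg25 and erg6 were called lower. This was the 1 setting of those tried in which any member was, and the share of all transcripts was not counted in it.

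Only 1 member is itself deleted in the series. In the libraries labelled erg4, the erg4 transcript had 210, 213, 228 and 144 CPM, against 184 to 232 CPM in wild type. The means of 199 ± 37.4 CPM (SD, n = 4) and 202 ± 16.3 CPM (SD, n = 8) differed by less than the spread between libraries (exact permutation test, two-sided p = 0.87 over all splits, where the smallest p possible is 0.0020). Among the 94 strains its erg4 level ranked 53 from the lowest. The same libraries held 75.1, 134, 218 and 191 CPM of tcg1, a gene chosen here after its values were seen, against 560 to 927 CPM in wild type. The gene tcg1 is itself the one named as deleted in another strain of the series, where it was at 7.59% of wild type. Whether the 3′ tag of erg4 lies within the deleted part was not tested, so the data do not tell whether these libraries lack Erg4 or whether their label is right, and their values are given under that doubt.

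Several members, erg31 above all, differed strongly between replicate numbers, in knockout strains as in wild type. This was noticed in the values and then fitted with strain as a block. In replicate 4, erg31 had a median over the 94 strains of 187 CPM, against 403, 457 and 442 CPM in replicates 1, 2 and 3. The difference of replicate 4 from the other 3 was -1.16 ± 0.03 (log2, SE), with the level lower in 93 of 94 strains, and only 0.174% of 4595 transcripts fell at least as far. In wild type the same difference was -1.0, the libraries of replicate 4 holding 228 and 224 CPM. Next came erg1 (-0.67 ± 0.03, lower in 89 strains), erg25 (-0.52 ± 0.03, 89 strains) and erg11 (-0.51 ± 0.02, 92 strains), and then erg5 (-0.34), erg6 (-0.31), erg4 (-0.25), hmg1 (-0.21) and erg9 (-0.17). The ring-closing enzyme gene erg7 alone was higher in replicate 4, by 0.22 ± 0.03, in 75 of 94 strains. By the rule of a fold change of 0.6 and an adjusted p under 0.05, erg31 and erg1 were lower in replicate 4, against 2.66% of all transcripts, and none was higher, against 2.00%. The median of all transcripts differed by 0.01. In wild type erg31 and erg1 (-0.60) also came first, followed by erg11 (-0.47) and erg25 (-0.35). The fall of erg31 in replicate 4 was of similar size with other scalings (-1.20 and -1.05), while erg1 on CPM from reads on genes (-0.56) no longer passed the fold change. On CPM from reads on genes the median of all transcripts differed by 0.12. Each replicate number occurs once per strain, so that growth, extraction and sequencing of a replicate cannot be told apart.

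**Figure D4:**
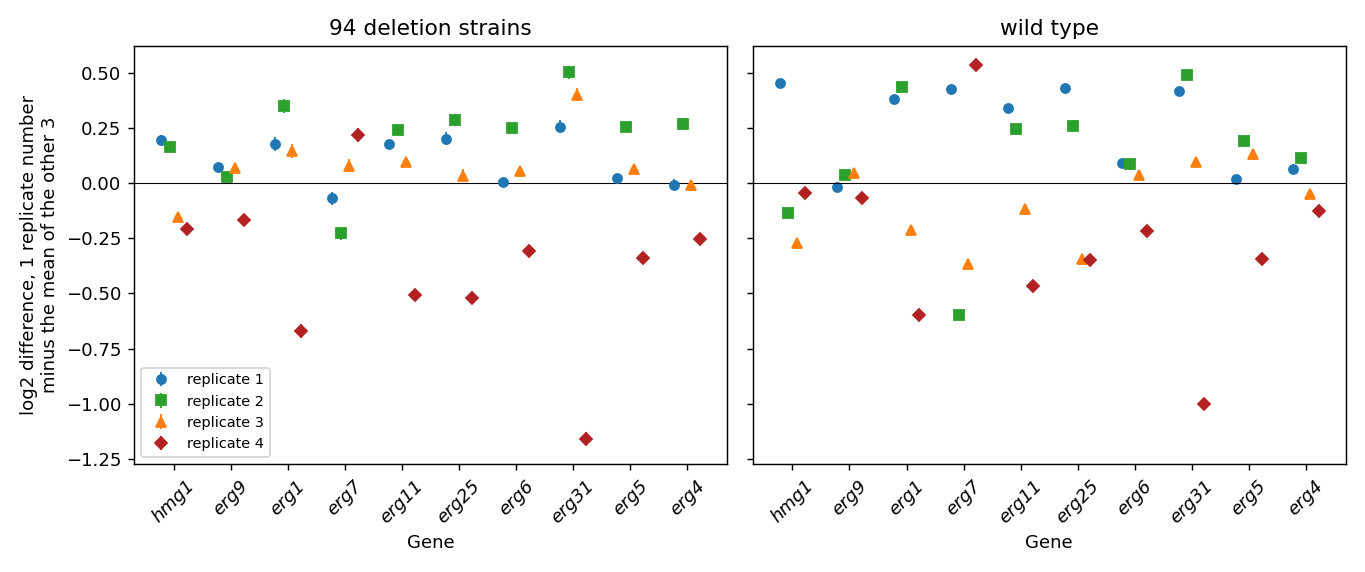
Log2 difference of each replicate number from the mean of the other 3 for the 10 genes, over the 94 knockout strains (left, points with SE) and in wild type (right, without error). In replicate 4 erg31 lies at -1.16 in the knockouts and -1.0 in wild type, erg1 follows, and erg7 is the gene that lies above 0 in both.

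Of the variance of erg31 over the knockout libraries, 63.5% lay between replicate numbers, 25.3% between strains and 11.2% in the rest, and 0.152% of transcripts had a larger share between replicates. For erg11 the share between replicates was 49.0%, for erg25 39.8%, for erg6 35.6%, for erg5 34.5% and for erg1 32.6%, against a median of 14.4% over all transcripts. It was 17.4% for erg7, 17% for hmg1, 16.5% for erg4 and 12% for erg9. Replicate number took a larger share than strain for erg31, erg11 and erg25, and strain the larger share for the other 7 members, with the highest for hmg1 (56.4%) and erg4 (54.6%). The replicate difference is part of the spread of erg31 within every group, wild type included. For erg31, 14 strains passed the fold change but only rpl1801 passed p. With the replicate number as a block, all 14 were called, with log2 fold changes of -0.60 (gcn5) to -1.53 (rpl1801). In this fit 21 strains had erg1 lower (-0.62 to -1.34), 4 had erg4 lower and 1 had erg7 lower, together 4.26% of pairs, against 1.73% of all transcripts. Both erg1 and erg31 were lower in 11 strains. As an example, erg31 in the rpl3602 knockout had 245, 271, 262 and 131 CPM, against 472 and 490 CPM in replicates 1 and 2 of well A1, 404 and 394 CPM in replicate 3 and 228 and 224 CPM in replicate 4 of wild type. Its log2 fold change was -0.80 without the block (limma, adjusted p = 0.11) and -0.79 with it (limma, adjusted p = 0.014). Without replicate 4, 35 pairs were lower, 10 of them of erg31.

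Across the 94 strain means of log2 CPM the members fell into groups that moved alike. These correlations are descriptions over strains that share plates and the scaling of the files. The highest were those of erg1 with erg25 (Pearson's r = 0.84, Spearman's rho = 0.85), erg5 with erg4 (0.84 and 0.74), erg1 with erg31 (0.79 and 0.74), hmg1 with erg4 (0.76 and 0.69), erg25 with erg31 (0.75 and 0.73) and erg11 with erg25 (0.74 and 0.75). For erg1 and erg25, r was between 0.66 and 0.84 within each replicate number, and for erg5 and erg4 between 0.63 and 0.89. Without the 2 strains farthest out, r was 0.82 and 0.80. For hmg1 and erg9, r was 0.23. Squalene synthase erg9 and lanosterol synthase erg7, the enzymes before and after the epoxidase Erg1, had r of -0.06 and 0.06 with erg1. With the mean of the other 9 members, r was 0.14 for erg9, -0.02 for erg7 and 0.59 to 0.80 for the remaining 8. The low counts of erg7 limit what its values can show.

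**Figure D5:**
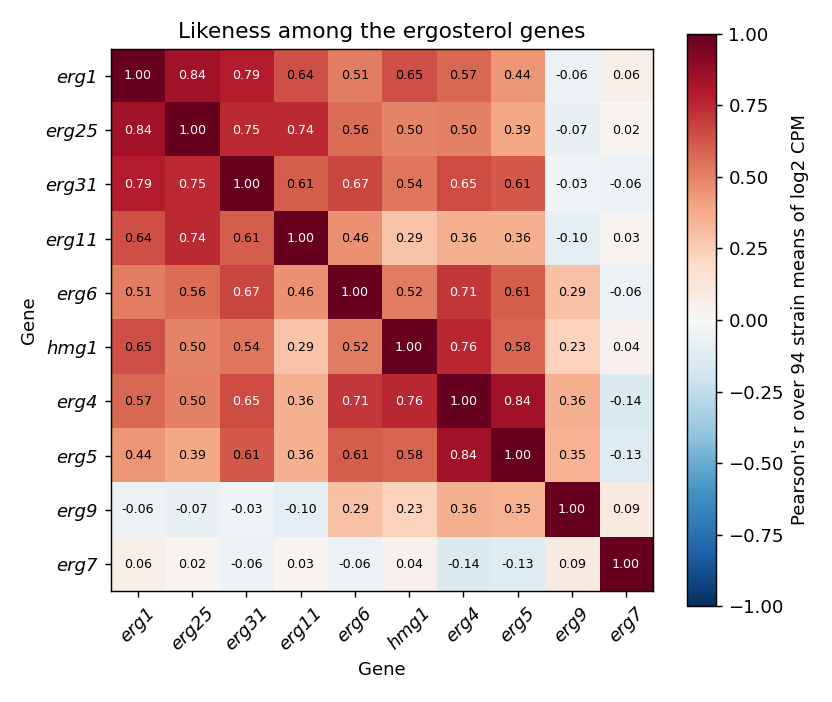
Pearson's r between the 10 genes over the 94 strain means of log2 CPM, red for positive and blue for negative. The block of erg1, erg25, erg31 and erg11 and the pair of erg5 and erg4 (0.84) are dark red, while the rows of erg9 and erg7 are pale.

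Among 5011 other transcripts, the 5 most like the mean of the members over the 94 strains were trr1 (r = 0.90, rho = 0.88), srm1 (0.87, 0.82), fas1 (0.86, 0.82), pgi1 (0.86, 0.81) and fas2 (0.85, 0.81), against a median r of -0.04. Trr1 is thioredoxin reductase, Pgi1 the glucose-6-phosphate isomerase, and Fas1 and Fas2 are the subunits of fatty acid synthase. Without rpl1801, r lay between 0.83 and 0.88 for these 5.

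Genes around the members were counted in the same way, on the scale of the files. Of 658 pairs of strain and mevalonate pathway gene (7 genes), 29 were lower (4.41%) and 1 higher. They were mostly hcs1, the HMG-CoA synthase gene just before hmg1, lower in 15 strains, with -1.26 in rpl1801, and erg10, an acetyl-CoA acetyltransferase gene, lower in 13, with -0.97 in hcr1. The mevalonate kinase gene erg12 was lower in 1 strain, mvd1, erg8 and idi1 were called in none, and the farnesyl diphosphate synthase gene fps1 was the 1 called higher, in 1 strain. Of the later sterol steps outside the 10 genes, 6 of 7 were found. They had 5 lower (0.887%) and 6 higher (1.06%) of 564 pairs, both under the shares of all transcripts, with erg28, a scaffold protein of sterol enzymes, lower in 4 strains, erg32, the second C-5 desaturase gene, higher in 5, erg24 lower in 1 and erg2 higher in 1. The P450 partner dap1 was higher in rpl1801 (1.1, adjusted p = 0.0041), against the direction of erg11 and erg5, and the reductase ccr1 was lower in 2 strains. Of the 10 genes around SREBP, 16 of 940 pairs were lower (1.70%, near the 1.47% of all transcripts) and 0 higher. These were dsc1, an E3 ligase gene needed for Sre1 cleavage, in 10 strains, with -1.07 in ssz1, and ofd1, whose product promotes Sre1 degradation, in 6. The sre1 transcript itself, at 81.0 ± 44.9 CPM in wild type (SD, n = 8), was called in none, with log2 fold changes of -0.73 to 0.52.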

How the data were processed

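The deposited table held CPM of 3′ mRNA-Seq for 384 libraries, made by the authors with STAR 2.6.1b and Subread 1.6.2 among other tools on build ASM294v2. CPM were used in place of RPKM because only transcript ends were read. The decimal points of 78.8% of the deposited values were lost, so the values as given are in no fixed unit. They were restored from the fact that a CPM is a whole number of reads times the CPM of 1 read. In 0.0711% of values (2 of the 3840 values of the members) the position stayed doubtful, and in a test on made-up libraries with known counts 0.0126% of values were restored wrongly. No column was left out.

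Values under 1.006722 CPM were removed, as in the study's methods, and a transcript needed 75% of its values in both groups. Missing values were not imputed. Log2 CPM of each strain (4 libraries) were compared with wild type (8) by limma 3.58.1 in R 4.3.3, fitted over all transcripts with Benjamini-Hochberg adjustment. Strain classes were compared on strain means. On simulated counts of 4 against 8 libraries with 5491 genes, 89% of changes of 2-fold and 98% of 4-fold were recovered. On simulated strain means of 19 against 75, with 4814 genes, 100% of changes of 1.23-fold were recovered. The simulated counts held no difference between replicate numbers. The simulated strain means spread less than those of erg1 (SD 0.34 in each class) or erg31 (SD 0.40 and 0.28). The rates can thus be too high for these genes.

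Replicate numbers were taken to pair libraries, since by the labels each number holds every knockout strain once, in the same well. The labels name no plate, so the pairing is an assumption. Wild type of well A2 has no library of number 1. Deviations from the group means had a median r of 0.27 between libraries of the same number and -0.10 between others, and in 77 of 94 strains all 4 correlations with wild type passed 0.1. Deviations cancel within a group, which draws r between other numbers to negative values where r of the same number is positive. The -0.10 is thus no separate support for the pairing. The block leaves out 2 wild-type libraries of well A2 that share the number 2. Of 592 pairs of libraries within groups, the lowest chi-square per degree of freedom was 1.42 and the median 9.54, so none was counted as a duplicate.

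The members and lists were chosen with earlier results of these data known. The strains named are those with the largest falls per member past both p rules and the 6 with most members called. From other lists, the genes called in most strains are named, and 5 transcripts most like the members. Promoter and protein sequences were not used here. Alternatives were other floors, pseudocounts, scalings, thresholds, wild-type libraries, references and left-out replicates. Intervals from counting cover counting error only.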

Additional observations from a re-analysis of the deposited data

How the results depend on the processing

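The 21 calls lower were between 18 and 22 with another floor, pseudocount, threshold or median centring, with 1 fit over all groups or without doubtful values, and between 15 and 30 without any 1 wild-type library. With the replicate block they were 40 (17 of the 21 among them), against 8 without it in the same libraries, with CPM on the reads counted on genes 6, with wild type of well A1 only 5, of well A2 only 5, and against the other 93 strains 7. Leaving out a replicate number gave 9 (without replicate 2) to 35 (without replicate 4), with 10 without replicate 3. Chosen after seeing the data, strains whose deleted gene was lower held 10, and the 2 wild-type libraries that no label describes as knockout gave 29 (10 of the 21 among them). The share of all transcripts was not counted for either setting. With those 2 wild-type libraries the calls were 9 of erg1, 9 of hmg1, 6 of erg25, 3 of erg11, 2 of erg31 and 0 of erg4. Over 26 alternatives, erg31 in rpl1801 and erg1 in rpl1801 and tfg3 were always called and no called pair changed sign.

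In ribosomal protein strains the 7 members lower were 6 to 8 without any 1 replicate number, 3 in replicate 2 alone and 2 in replicate 4 alone. The share of all transcripts was not counted for these settings. Members not called changed sign. For erg9 the difference was 0.086 in replicate 3 alone, 0.012 in replicate 4 alone, 0.041 on reads on genes, and -0.043 to 0.025 leaving out replicates. For erg7 it was -0.025 in replicate 3 alone, -0.067 in replicate 4 alone, and -0.0068 to 0.053 leaving out replicates. In SAGA strains, hmg1 was at 0.050 in replicate 1 alone and 0.029 in replicate 4 alone, erg4 at -0.031 in replicate 3 alone and -0.012 without spt7, and erg25 at 0.080 and erg7 at -0.14 in replicate 4 alone. There erg7 was at -0.031, -0.015 and -0.037 without ngg1, spt8 and gcn5, and between -0.027 and 0.063 leaving out replicates. Without spt8, 2 members were lower, against 0 with all 5 strains. This was the 1 SAGA setting in which the count moved, and the share of all transcripts was not counted for it. The log2 difference of erg4 in the libraries labelled erg4 was 0.095 on reads on genes and -0.11 to 0.076 leaving out replicates, against -0.02. The causes were not tested. Low counts limit erg7 most.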
